A study of Mus musculus with 12 samples.

Results

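The 10 genes described here encode the ligand Nodal, its inhibitors Lefty1, Lefty2 and Cer1, the ligand Wnt3, and the mesendoderm transcription factors T, Eomes, Gsc, Mixl1 and Lhx1. Their Mediator regions were chosen by position: the peaks of each protein were merged across its 4 libraries wherever they overlapped by at least 1 bp, and a region was kept if the nearest protein-coding gene span within 100 kb (GRCm38) belonged to 1 of the 10 genes. This gave 44 of 65291 MED1 regions and 37 of 66123 MED24 regions. All 10 genes had a MED1 region, and Cer1 had no MED24 region.

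Peaks came from ChIP-seq in E14tg2a mouse embryonic stem cells (129SV background), all stably carrying a cRAF-ErT2 cassette, a RAF kinase that 4-hydroxytamoxifen (4OHT) switches on so that ERK is activated. All cells had been kept in serum with LIF and 2 µM Chir99021, and for the last 24 h in serum with LIF and PD173074, an inhibitor of FGF receptors, at 250 nM. Cells were then taken either without 4OHT (0 h) or after 2 h in 250 nM 4OHT. MED1 was precipitated with an antibody to the protein and MED24 with anti-FLAG, in clones a and b, which gave 4 groups of 2 libraries; 4 input samples are not analysed here. Both proteins belong to Mediator, which carries signals from transcription factors at enhancers to RNA polymerase II. Peak names in the MED24 lists carry the folder name of another cofactor, EP300, and the labels were followed. No vehicle-treated cells or cells without the cassette were analysed here, so 4OHT, time and ERK activity cannot be told apart. Libraries held 37483 to 48931 peaks, with more at 2 h than at 0 h in each clone of each protein. Depth is unknown, since the files hold no read numbers.

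Nodal is a secreted ligand of the TGF-beta family. With the co-receptor Cripto (Tdgf1) it acts through activin receptors on SMAD proteins, which bind DNA together with partners such as FOXH1. Lefty1 and Lefty2 are secreted inhibitors that Nodal signalling itself induces, a textbook negative feedback loop. Cer1 is a secreted antagonist of Nodal and BMP ligands. In the embryo Nodal and Wnt3 drive formation of the primitive streak, where T and Eomes (T-box factors) and Gsc, Mixl1 and Lhx1 (homeobox factors) specify mesoderm and endoderm. Embryonic stem cells express Lefty1, Lefty2 and Nodal while the streak genes are low.

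Promoter windows, from 250 bases before to 50 after the transcription start, were taken from RefSeq (GRCm38.p6), which matched 7 of the 10 genes. They are shown for Nodal, Gsc and Lhx1, the genes at which peaks touched the window in at least 2 of the 8 libraries. Capitals mark matches to the motifs searched on both strands, which were FOXH1 (AATCCAC or AATACAC), SMAD (CAGACA), T-box (AGGTGTG), TCF/LEF (CTTTGAT or CTTTGAA) and ETS (CCGGAAG). No motif's letters overlap another's in these windows.
Nodal, chr10:61417722-61418021, + strand: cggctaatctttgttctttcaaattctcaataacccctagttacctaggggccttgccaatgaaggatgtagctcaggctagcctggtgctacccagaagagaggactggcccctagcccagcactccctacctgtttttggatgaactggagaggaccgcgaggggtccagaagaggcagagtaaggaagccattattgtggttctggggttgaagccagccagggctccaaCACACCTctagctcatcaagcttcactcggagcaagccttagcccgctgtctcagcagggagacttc
Gsc, chr12:104473187-104473486, - strand: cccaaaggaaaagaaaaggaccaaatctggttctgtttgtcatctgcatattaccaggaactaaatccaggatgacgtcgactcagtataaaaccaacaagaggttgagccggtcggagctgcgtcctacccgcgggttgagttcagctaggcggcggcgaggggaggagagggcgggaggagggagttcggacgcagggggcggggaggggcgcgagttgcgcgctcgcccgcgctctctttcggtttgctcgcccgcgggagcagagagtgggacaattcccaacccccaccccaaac
Lhx1, chr11:84525485-84525784, - strand: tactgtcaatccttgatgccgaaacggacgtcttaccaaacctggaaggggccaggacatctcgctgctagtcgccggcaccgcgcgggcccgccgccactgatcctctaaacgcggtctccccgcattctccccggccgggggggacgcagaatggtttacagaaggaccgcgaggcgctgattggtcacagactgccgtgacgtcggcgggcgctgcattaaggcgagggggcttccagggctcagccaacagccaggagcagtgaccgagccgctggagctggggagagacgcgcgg
The Nodal window holds 1 match, to the T-box letters, which begins 17 bases before the start; 5.84% of all 32851 promoter windows hold such a match. The shares for the other motifs are 4.69% (FOXH1), 21% (SMAD), 8.65% (TCF/LEF) and 8.86% (ETS). The Gsc and Lhx1 windows hold none of these letters. MED1 peaks covered 189 and 49 bases of the Gsc window at 0 h (clones a and b) and 220 and 219 bases at 2 h. A MED1 peak thus touched the window in all 4 libraries. The 49 bases of clone b at 0 h all lay after the transcription start. MED24 peaks touched the Gsc window in no library, though a MED24 peak lay 3 bp away at 2 h in clone b. At Nodal the window was touched by MED1 peaks in clone b only, with 214 bases at 0 h and 183 at 2 h, and by MED24 peaks at 0 h in clone b (108 bases) and at 2 h in clone a (58 bases). The Lhx1 window was touched by MED1 in 1 library (0 h, clone a, 67 bases) and by MED24 in 1 library (2 h, clone b, 27 bases). By bases within the window, Nodal and Lhx1 thus had no pattern by time that both clones shared. The distance to the nearest MED24 peak did differ by time at Lhx1. It was 11513 bp (clone a) and 11516 bp (clone b) at 0 h. At 2 h it was 46 bp in clone a, and the peak of clone b reached into the window. The windows of Eomes and Cer1 were touched by no peak, that of Wnt3 by MED24 in 1 library (2 h, clone a, 201 bases), and that of T by 2 bases of a MED24 peak in 1 library (2 h, clone b).

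Fewer regions were called at these genes after 2 h of 4OHT, and most of the difference in bases under peaks lay at Lefty1 and Lefty2. Of the 44 MED1 regions, clone a called 33 at 0 h and 18 at 2 h, and clone b called 32 and 21. Of the 37 MED24 regions, clone a called 27 at 0 h and 16 at 2 h, and clone b called 27 and 19. Pairs of values below are in the order clone a, clone b. The 2 times did not overlap in either protein, although the 2 h lists were the longer ones. Of all 65291 MED1 regions, 36161 and 34995 were called at 0 h and 41291 and 44811 at 2 h. Of all 66123 MED24 regions, 39864 and 36479 were called at 0 h and 40452 and 47259 at 2 h. Regions at these genes made up 0.0913% and 0.0914% and then 0.0436% and 0.0469% of those calls in MED1. In MED24 they made up 0.0677% and 0.0740% and then 0.0396% and 0.0402%. The mean number called at these genes was 32.5 ± 0.707 at 0 h against 19.5 ± 2.12 at 2 h in MED1, and 27 ± 0 against 17.5 ± 2.12 in MED24 (SD, n = 2). By an exact permutation test, two-sided, p was 0.333 in either protein, which is as low as groups of 2 allow. Bases under peaks gave the same order: MED1 peaks at these genes covered 30.4 and 29.5 kb at 0 h and 11.989 and 13.4 kb at 2 h, and MED24 peaks 22.7 and 22.9 kb and then 10.999 and 12.1 kb (exact permutation p = 0.333 in each). As a share of all bases under peaks, that was 0.128% and 0.129% and then 0.0482% and 0.0491% for MED1, and 0.0994% and 0.110% and then 0.0491% and 0.0456% for MED24. In bulk chromatin, binding in fewer cells and weaker binding in each cell cannot be told apart.

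A region is called gained here if both 2 h libraries and neither 0 h library had a peak in it, lost in the reverse case, and retained if all 4 libraries had one. Of the 44 MED1 regions 2 were gained (4.55%, against 17.6% of all MED1 regions), 9 were lost (20.5%, against 6.90%) and 12 were retained (27.3%, against 30.9%). Of the 37 MED24 regions 3 were gained (8.11%, against 16.0% of all MED24 regions), 8 were lost (21.6%, against 8.83%) and 11 were retained (29.7%, against 32.6%). The share of losses was thus above, and the share of gains below, that over all regions in each protein, and no test was made of either. Lefty1 and Lefty2 gave 6 of the 9 lost MED1 regions and 3 of the 8 lost MED24 regions. At the other 8 genes, 3 of 29 MED1 regions (10.3%) and 5 of 25 MED24 regions (20%) were lost, and 1 (3.45%) and 2 (8%) were gained. Counted within each clone and averaged (the replicate block), the losses were 17 in MED1 and 14 in MED24, against 17.7% and 18.8% of all regions, and the gains 4 and 4.5, against 29.2% and 27.4%. Losses in MED1 numbered 14 if untreated clone a was left out (against 13.5% of all regions) and 15 if untreated clone b was (against 14.4%), and those in MED24 numbered 13 if untreated clone b was (against 16.6%). Gains numbered 4 in MED1 (against 27.6%) and 5 in MED24 (against 27%) if treated clone a was left out. Of the 9 lost MED1 regions 2, both at Gsc, overlapped a lost MED24 region, while over all regions 2007 of 4508 lost MED1 regions did so, 3.07% of all MED1 regions. Of the 8 lost MED24 regions the same 2 overlapped a lost MED1 region, and over all regions 2004 of 5839 did so, 3.03% of all MED24 regions.

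**Figure D1:**
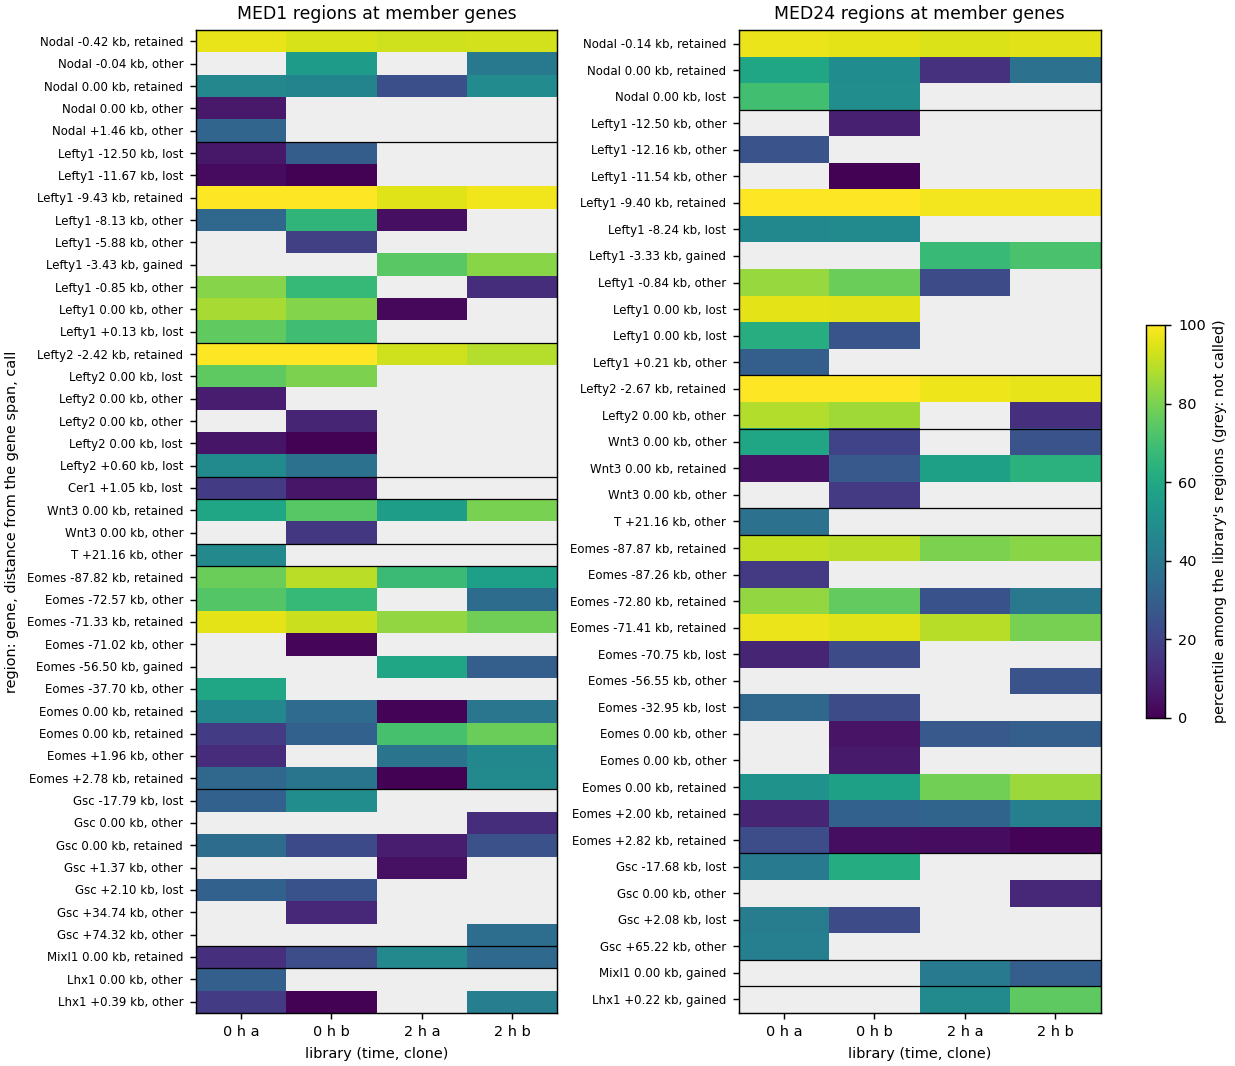
Each row is a region at a member gene, labelled with its distance from the gene span in kb (minus: below the span, towards lower coordinates) and its call, and each column is a library. Colour gives the percentile of the region among all regions that library calls (100 is the highest) and grey means no peak. The Lefty1 and Lefty2 rows are mostly coloured at 0 h and mostly grey at 2 h, apart from 1 row of high percentile for each gene in each protein and the gained region of Lefty1.

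Of the regions at the ligand genes Nodal and Wnt3, 3 of 7 in MED1 were retained (against 30.9% of all MED1 regions) and none lost (against 6.90%). In MED24 3 of 6 were retained (against 32.6% of all MED24 regions) and 1 lost (against 8.83%). These counts are too small to be set apart from the shares over all regions, and no test was made. The leading Nodal region, just before the gene (MED1 chr10:61415482-61417547, MED24 chr10:61415459-61417829), was retained in both proteins. Its percentiles among the regions called by a library were 96.7 and 93.9 at 0 h and 92.8 and 93.3 at 2 h in MED1. For MED24 they were 97.0 and 96.0 and then 94.6 and 95.6. This region was near the top of each list at both times. Such percentiles come from lists of unequal length, so differences between times were taken only among retained regions, ranked against all retained regions of the protein. On that scale the leading Nodal region differed by -4.44 and -0.0347 points in MED1 and by -2.52 and -0.927 in MED24. A second region, across the start of the gene (MED24 chr10:61417964-61418978), stood at 38.0 and 31.6 at 0 h and 6.47 and 15.9 at 2 h among retained MED24 regions. It was lower at 2 h in both clones. In MED1 the matching region (chr10:61418030-61418856) stood at 22.7 and 23.3 at 0 h and 11.8 and 27.3 at 2 h, with no shared direction. A small MED24 region further inside (chr10:61419169-61419545) was lost, at percentiles 69.7 and 49.1 at 0 h.

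Wnt3, the ligand that starts the primitive streak, had a retained region inside its span in both proteins (MED1 chr11:103809083-103810762, MED24 chr11:103809790-103810527). Among retained regions it stood at 35.6 and 57.9 at 0 h and 40.3 and 68.6 at 2 h in MED1. In MED24 it stood at 1.39 and 14.6 at 0 h and at 41.8 and 43.9 at 2 h. Each was higher at 2 h in both clones, by 7.67 points on average in MED1 and by 34.8 in MED24. The MED1 region also overlaps a second MED24 region (chr11:103809225-103809579), which stood at percentiles 59.3 and 20.1 of its libraries at 0 h, was not called in clone a at 2 h and stood at 25.6 in clone b. The 2 MED24 regions of this site thus differed in opposite ways in clone a. No region of Wnt3 was gained or lost.

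At the inhibitor genes Lefty1 and Lefty2, broad Mediator occupancy at 0 h gave way to a few peaks at 2 h. MED1 peaks covered 9.72 and 9.98 kb at Lefty1 at 0 h and 1.77 and 1.66 kb at 2 h. At Lefty2 the values were 8.58 and 8.335 kb and then 1.41 and 1.915 kb. MED24 peaks covered 7.93 and 7.33 kb and then 1.35 and 1.31 kb at Lefty1, and 4.81 and 4.62 kb and then 1.62 and 2.09 kb at Lefty2. In each gene and protein both 2 h libraries lay below both 0 h libraries. The next most covered gene, Eomes, had 5.21 and 4.35 kb under MED1 peaks at 0 h, less than either Lefty gene, and 4.69 and 5.26 kb under MED24 peaks, about as much as Lefty2.

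**Figure D2:**
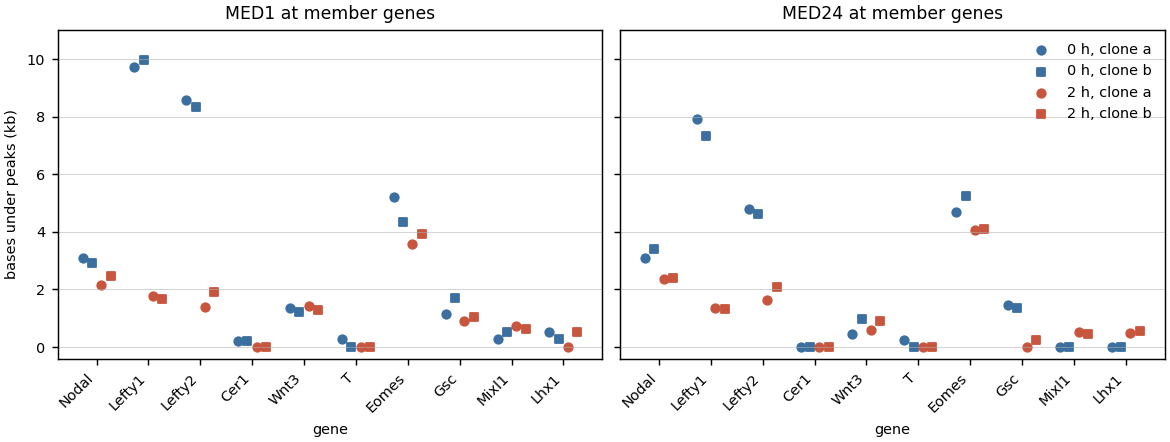
Bases under peaks (kb) at each of the 10 genes, in MED1 (left) and MED24 (right), with 1 point per library (blue 0 h, red 2 h, circles clone a, squares clone b). Lefty1 and Lefty2 have 4.62 to 9.98 kb at 0 h and 1.31 to 2.09 kb at 2 h, while the points of most other genes lie close together.

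Each Lefty gene kept 1 strong region. That of Lefty1 lies 9.43 kb below the gene span (MED1 chr1:180923446-180925595, MED24 chr1:180923618-180925619). At 0 h it was number 89 of 36161 and 45 of 34995 regions called in MED1, and number 34 of 39864 and 4 of 36479 in MED24. Among retained regions it went from percentiles 99.6 and 99.8 at 0 h to 93.0 and 96.5 at 2 h in MED1, and from 99.8 and 100 to 97.3 and 96.7 in MED24. The authors' fold enrichment at this region was 23.4 and 45.6 in the 0 h MED1 libraries and 19.8 and 21.6 in the 2 h libraries. That of Lefty2 lies 2.42 kb below its span (MED1 chr1:180887312-180890689, MED24 chr1:180887663-180890443) and was number 92 and 97 (MED1) and 25 and 27 (MED24) from the top at 0 h. It went from 99.5 and 99.5 to 89.8 and 82.2 in MED1, and from 99.9 and 99.9 to 95.9 and 93.3 in MED24. Both regions were thus near the very top of the lists at 0 h, and lower at 2 h in both clones of both proteins. Over all retained regions 36.8% in MED1 and 36.4% in MED24 were lower at 2 h in both clones. Those shares cover regions of any rank and are not a like comparison. Both Lefty regions stood at 99.5 or above at 0 h and had almost no room to rise.

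Around the gene bodies most calls were absent at 2 h. The MED1 region that spans Lefty1 (chr1:180934376-180938455) stood at percentiles 86.8 and 81.6 of its libraries at 0 h, at 2.3 in clone a at 2 h, and was not called in clone b, so that it was not lost by the rule. MED24 gave regions over the same gene (chr1:180934395-180936943, at 95.9 and 95.6, and chr1:180937068-180938409, at 62.2 and 26.0), and both were lost. Just above the gene, MED1 region chr1:180938529-180940015 was lost from 75.7 and 69.3. The other losses at Lefty1 were chr1:180922017-180922524 (6.38 and 29.3) and chr1:180922823-180923354 (2.82 and 0.772) in MED1, and chr1:180925722-180926780 in MED24 (46.6 and 47.9). Over the start of the Lefty2 span the MED1 region chr1:180892743-180896035 was lost from 75.2 and 80.1. Its MED24 counterpart (chr1:180892780-180895172) stood at 88.5 and 85.8 at 0 h, was not called in clone a at 2 h and stood at 13.9 in clone b. The remaining lost MED1 regions at Lefty2 were chr1:180898957-180899314 and chr1:180899704-180901383, the second from 47.7 and 37.2. These losses therefore included regions from the upper part of the 0 h lists as well as weak ones.

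A single new region went against that pattern. It lies 3.43 kb below Lefty1 (MED1 chr1:180931175-180931589, MED24 chr1:180931177-180931692) and was gained in both proteins. At 2 h it stood at percentiles 74.5 and 82.2 in MED1 and 67.5 and 71.1 in MED24, and no 0 h library called it. The authors' MED1 fold enrichment was 8.08 and 11.3. Over all regions, 10.9% of MED1 regions were gained and overlapped a gained MED24 region, and 10.8% of MED24 regions the reverse.

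**Figure D3:**
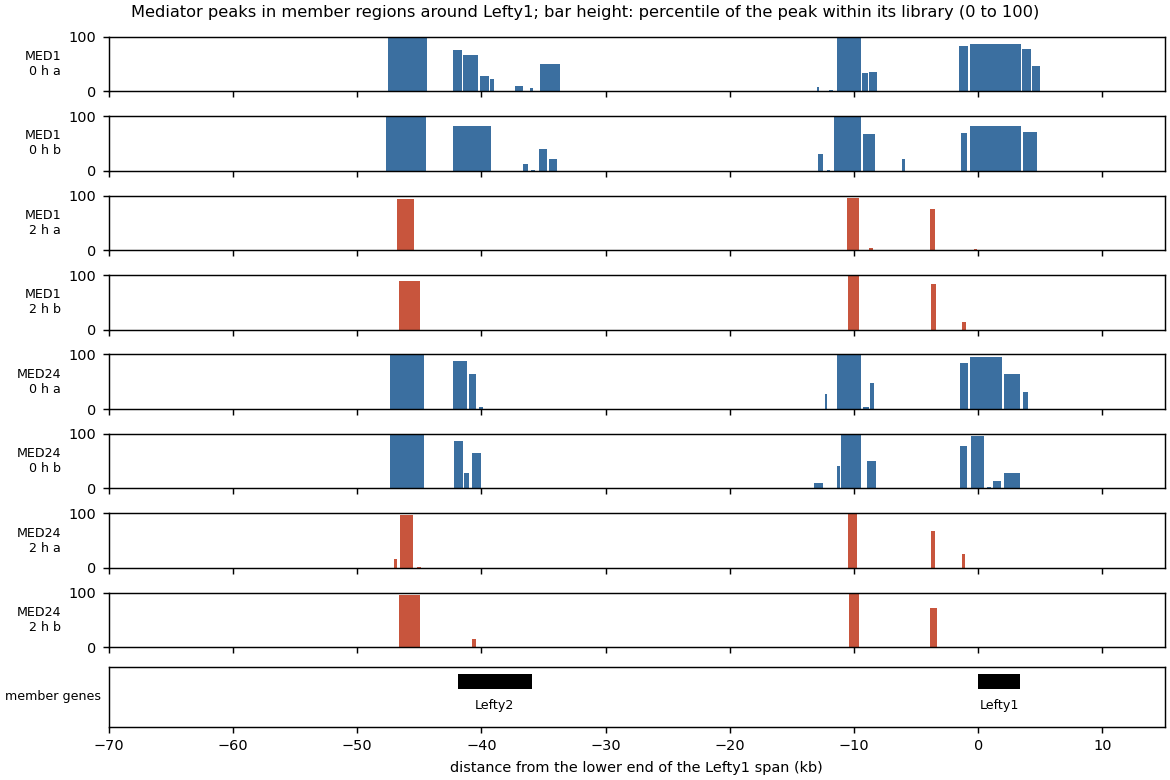
Peaks of the 8 libraries in the regions of Lefty1 and Lefty2, by distance (kb) from the lower end of the Lefty1 span, with bar width as the peak's extent and bar height as its percentile among the peaks of its library (blue 0 h, red 2 h), and the spans of both genes below. Broad bars over Lefty2 and Lefty1 at 0 h are missing or low at 2 h, 1 bar below each Lefty gene remains tall in all 8 libraries, and the bar 3.43 kb below Lefty1 is present at 2 h alone.

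Cer1, the third inhibitor gene, had 1 MED1 region, 1.05 kb above its span (chr4:82886205-82886499), and no MED24 region. It was weak, at percentiles 17.2 and 6.1 at 0 h, and was lost.

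Among the transcription factor genes, Eomes had the most regions, 10 in MED1 and 12 in MED24. Its retained distal regions were lower in rank at 2 h, and 1 region inside the gene was higher. The distal region 71.3 kb below the gene (MED1 chr9:118405839-118406854, MED24 chr9:118405715-118406780) stood among retained regions at 92.9 and 86.1 at 0 h and 76.6 and 66.2 at 2 h in MED1. In MED24 it stood at 94.4 and 92.5 and then at 85.0 and 67.1. A region 87.8 kb below (MED1 chr9:118389538-118390365, MED24 chr9:118389254-118390320) went from 61.9 and 82.8 to 55.0 and 36.1 in MED1 and from 84.6 and 84.1 to 72.4 and 71.1 in MED24. Both were lower at 2 h in both clones of both proteins. The region next to the first, retained in MED24 only (chr9:118404744-118405387), went from 72.7 and 64.4 to 12.6 and 17.5. MED24 regions chr9:118406824-118407441 and chr9:118444913-118445233 were lost, from at most 33.5.

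The region inside Eomes (MED1 chr9:118482312-118482823, MED24 chr9:118482207-118482813) was the member that moved up most in each protein. It stood at 5.35 and 12.9 at 0 h and at 58.8 and 65.2 at 2 h among retained MED1 regions, and at 29.3 and 40.5 and then at 70.1 and 75.4 among retained MED24 regions. The authors' MED1 fold enrichment there was 4.09 and 4.90 at 0 h and 8.34 and 9.5 at 2 h. The region was higher in rank at 2 h in both clones of each protein. Over all retained regions that held for 29.8% in MED1 and 36.1% in MED24. Both 2 h ranks also lay above both 0 h ranks in each protein, for which no share over all regions was counted. Eomes also gained a MED1 region 56.5 kb below the gene (chr9:118421319-118421690, at 58.9 and 30.3), which MED24 called in 1 of its 2 h libraries. The remaining retained regions of Eomes, near the start and just above the gene, stood between percentiles 0.685 and 47.4 of their libraries.

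**Figure D4:**
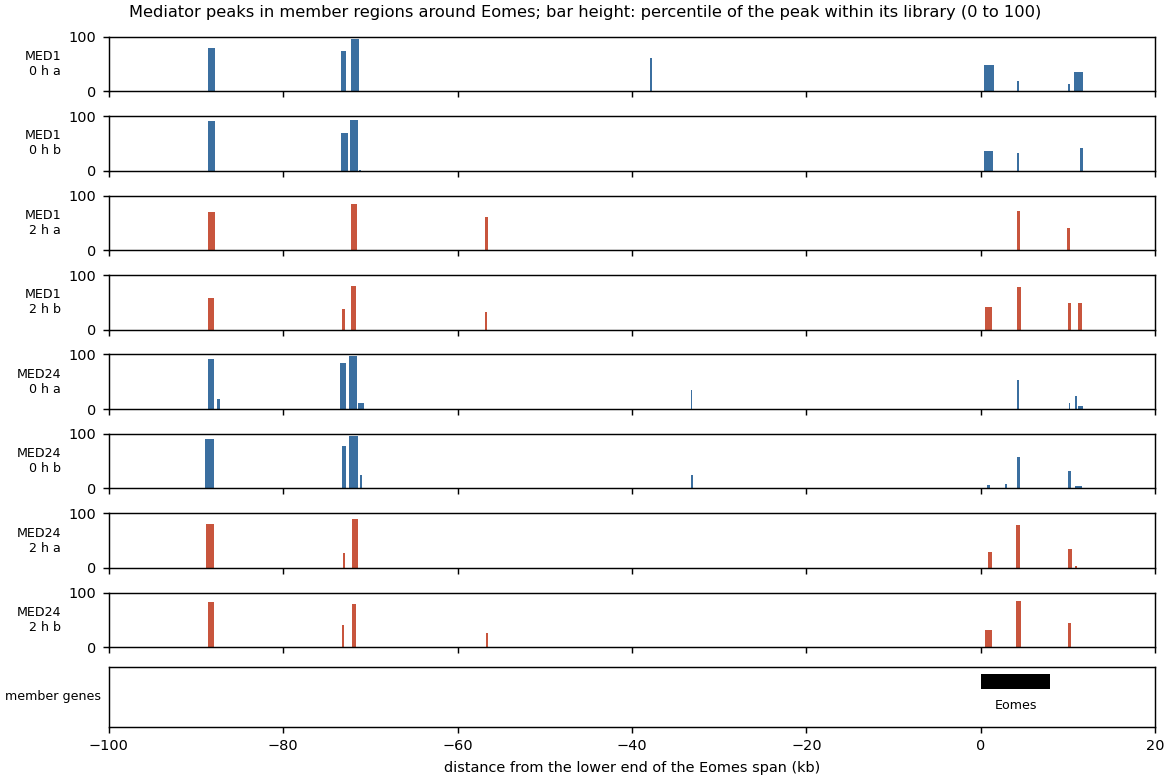
Peaks of the 8 libraries in the regions of Eomes, by distance (kb) from the lower end of the Eomes span, drawn as bars with the peak's extent as width and its percentile within its library as height (blue 0 h, red 2 h). The bar in the middle of the gene is taller in the 2 h libraries than in the 0 h libraries of the same protein, while the bar 71.3 kb below the gene is shorter at 2 h.

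Gsc, a homeobox gene of the organizer, lost the same 2 regions in both proteins. They lie 17.8 kb below the gene (MED1 chr12:104452945-104453415, MED24 chr12:104452971-104453528) and 2.10 kb above it (MED1 chr12:104475338-104476114, MED24 chr12:104475315-104476104). The first stood at 31.2 and 49.2 of the 0 h MED1 libraries and at 40.8 and 61.8 of the 0 h MED24 libraries. The second stood at 31.0 and 25.3, and at 41.9 and 22.9. Neither was called at 2 h in either clone. The MED1 region that reaches into the promoter window shown above (chr12:104472813-104473406) was retained at low rank. It went from 14.2 and 8.28 to 3.07 and 9.58 among retained regions. A MED24 region within its bounds (chr12:104472922-104473184) was called at 2 h in clone b alone, at percentile 11.5 of that library.

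The other homeobox genes went the other way in MED24. Mixl1 had 1 region, at the upper end of its span (MED1 chr1:180696619-180697438, MED24 chr1:180696773-180697466). It was gained in MED24, at percentiles 40.8 and 30.1 at 2 h. In MED1 it was retained, at 4.02 and 9.06 at 0 h and 30.7 and 15.3 at 2 h among retained regions. The Lhx1 region 0.224 kb above the gene span (chr11:84525758-84526333) was likewise gained in MED24, at 47.5 and 75.1. It overlaps the upper end of the promoter window shown above. The MED1 region that overlaps it (chr11:84525923-84526474) was called in both 0 h libraries, at 17.2 and 0.57, and at 2 h only in clone b, at 42.6. A second MED1 region (chr11:84525235-84525551) was called at 0 h in clone a alone, at 30.1. T, the founding T-box gene, had 1 region in each protein, 21.2 kb above the gene (MED1 chr17:8463659-8463925, MED24 chr17:8463654-8463896). It was called only at 0 h in clone a, at percentile 47.2 in MED1 and 37.8 in MED24. The gene model LOC115486424 overlaps the start of T, and the regions within 20 kb of T that were nearest to that model, 1 in MED1 and 3 in MED24, were not counted for T. None of those was gained, lost or retained.

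Retained member regions included both directions in each protein. Of 12 in MED1, 5 were lower in rank at 2 h in both clones (against 36.8% of all retained regions) and 3 higher (against 29.8%), with a median difference of -4.19 points against -1.44 over all retained regions. Of 11 in MED24, 8 were lower in both clones (against 36.4%) and 3 higher (against 36.1%), with a median of -4.43 against -0.0604. The mean difference was -0.719 points in MED1 (-1.38 and -0.0546 by clone) and -3.61 in MED24 (-3.08 and -4.15). With the replicate block, which adds regions called at both times of 1 clone only, it was -4.82 and -7.14. It changed sign with assignment within 20 kb (3.63 in MED1, 5.47 in MED24), which leaves out the distal Eomes regions, and in MED1 without the 0 h library of clone b (1.29).

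**Figure D5:**
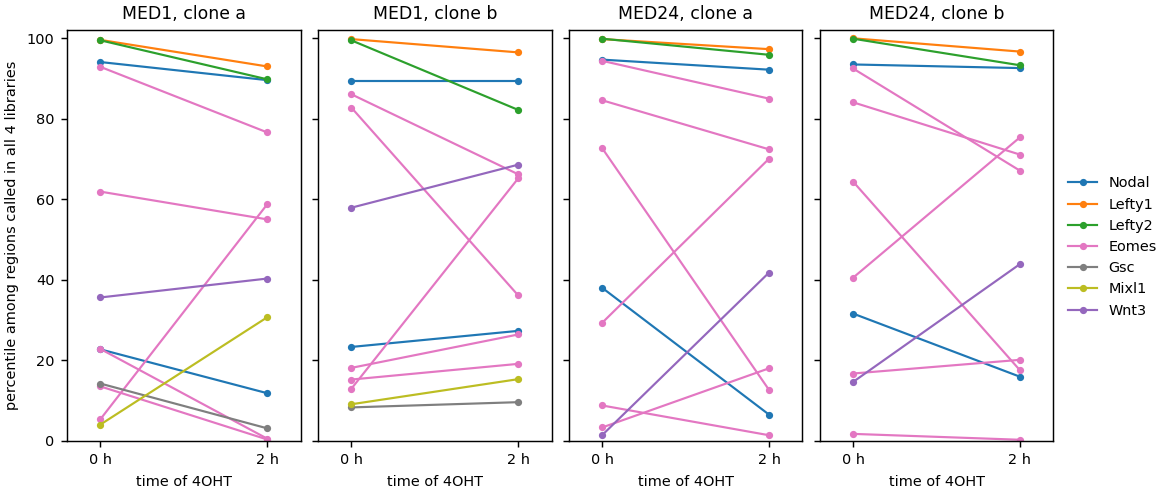
Percentile of each retained member region among all retained regions of its protein, at 0 h and 2 h, with 1 line per region coloured by gene, for each protein and clone. Lines of Lefty1 and Lefty2 start at 99.5 or above and end between 82.2 and 97.3, and 1 Eomes line climbs by 34.9 to 53.5 points in every panel.

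Other genes of the pathway had shares of lost regions closer to those over all regions. Of 24 further Nodal pathway genes, 9 had more gained than lost MED1 regions, 7 more lost and 8 neither, and for MED24 the numbers were 7, 6 and 11. Of their 145 MED1 regions 13.8% were gained and 9.66% lost, and of 129 MED24 regions 13.2% and 10.1%, against 17.6% and 6.90%, and 16.0% and 8.83%, over all regions. Skil, a repressor of SMAD complexes, gained 3 MED1 and 4 MED24 regions and lost none. Tgif1, a homeobox corepressor of SMAD proteins, gained 3 and 2, and Furin, a protease that cleaves pro-Nodal, 2 and 2, with none lost. Tdgf1, the gene of the co-receptor Cripto, lost 2 in each and gained none.

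Of 24 further mesendoderm genes, 7 had more gained than lost MED1 regions and 2 more lost, and 7 and 3 in MED24. Tbx6 had no region in either protein. Of 135 MED1 regions 11.9% were gained and 6.67% lost, and of 134 MED24 regions 14.9% and 10.4%. Tbx3 alone gave 7 of the 16 gained and 6 of the 9 lost MED1 regions. In MED24 it gave 4 of the 20 gained and 5 of the 14 lost regions. Lef1, a nuclear effector of Wnt signalling, gained 1 of 9 MED1 and 4 of 10 MED24 regions. Otx2, a homeobox gene of the epiblast and anterior ectoderm, lost none of 15 MED1 and 4 of 18 MED24 regions. Cdx2 gained 1 of 8 and 2 of 6 and Foxf1 1 of 3 and 2 of 2, with none lost.

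The profile of Nodal over the 8 libraries, taken as the sum of the percentiles of its called regions, was compared with that of 3974 genes with at least as many regions. The closest were AU018091 (Pearson r = 0.981), Gsc (0.975) and Ago2 (0.965), given as a description over 8 libraries that share clones and antibodies. The profiles of Lefty1 and Eomes were at places 148 (0.844) and 403 (0.750).

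Markers of the labelled cell type were occupied: all 8 embryonic stem cell markers had a region called in all 4 libraries of each protein. Such a region was also found at 3 of 5 primitive endoderm markers in each protein, at 3 (MED1) and 2 (MED24) of 4 trophectoderm markers, and at 2 and 3 of 6 fibroblast markers. The share of all genes with such a region was not counted, so these numbers have no general rate beside them. In all, the MED1 libraries called 36161 and 34995 regions at 0 h and 41291 and 44811 at 2 h. The MED24 libraries called 39864 and 36479 and then 40452 and 47259. Counts at markers were not tested against these totals. Regions called at trophectoderm markers numbered 8 and 11 at 0 h and 24 and 18 at 2 h in MED1, and 12 and 12 and then 17 and 23 in MED24. At embryonic stem cell markers they numbered 83 and 86 and then 65 and 67 in MED1, and 80 and 80 and then 71 and 81 in MED24. At fibroblast markers they numbered 3 and 6 and then 9 and 9, and 7 and 6 and then 10 and 11. At primitive endoderm markers they numbered 8 and 7 and then 8 and 13, and 10 and 11 and then 9 and 10. Their part in the differences at the Lefty genes was not tested.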

How the data were processed

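The authors deposited 1 peak list for each library. Bowtie2, bedtools, MACS2 and mm10 are named in the submitters' processing notes, and their versions and settings, like the role of the inputs, are not stated there. In the MED1 lists the authors deposited for each peak a score, a fold enrichment (ratio), and −log10 p and −log10 q. The MED24 lists hold a score deposited by the authors, read as 10 times −log10 q, which those lists do not state. Values per peak are the authors' own, and regions were ranked by −log10 p (MED1) or score (MED24), taking the highest peak of a region.

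Merging and assignment were done in Python 3.11.15 with pandas 2.3.3 and a RefSeq table of 21887 protein-coding genes (GRCm38.p6, the assembly mm10 stands for), and checked on simulated peak lists. Ties between genes did not occur at member regions. Groups come from the sample titles. No test was made per region, and numbers of regions called and bases covered per library were compared by exact permutation. Nothing says that the libraries of a group came from separate cultures, apart from the clones. The clone letters pair the libraries by origin; differences between clones at 0 h and at 2 h were not correlated over retained regions (r = -0.00505 in MED1, -0.00686 in MED24). Alternatives were a −log10 q of at least 10, 20000 or 10000 peaks per library, 500 bp windows, assignment within 20 kb, each library left out and the replicate block, and, chosen after seeing the data, gene models named LOC left out. All 10 genes are described. Regions are named if gained, lost, the strongest of their gene, or retained with the same direction in both clones of both proteins. Others were named by choice after their values were seen. Up to 4 genes are named per further list by the size of gained minus lost regions. Tbx6 is named besides for having no region, and Tbx3 for its many calls, after its values were seen. The genes and lists were chosen with earlier results of these data known.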

Additional observations from a re-analysis of the deposited data

How the results depend on the processing

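In each alternative, fewer member regions were called at 2 h than at 0 h. The difference was -13 in MED1 and ranged from -4 (−log10 q of at least 10, or 10000 peaks per library) to -14.5, and in MED24 it was -9.5 and ranged from -3 (10000 peaks) to -11. Counts of calls depended on the threshold. With a −log10 q of at least 10, 5 of 26 MED1 regions were lost (against 7.27% of all regions), 6 were retained in each protein, and the mean rank difference was -13.4 (MED1) and -2.23 (MED24). With 20000 peaks per library 6 of 22 and 7 of 20 were lost (against 13% and 15.5%), 6 were retained in each protein, and the rank difference was -17.2 and -5.95. With 10000 peaks 0 of 12 and 1 of 10 were gained (against 20.4% and 20.8%), 3 and 4 lost (against 15.2% and 18.5%) and 4 and 5 retained, with rank differences of -29.2 and -25.6. Assignment within 20 kb left 1 gained MED1 region and turned the rank difference to 3.63 and 5.47. The replicate block gave 4 gained and 17 lost MED1 regions and 14 lost MED24 regions, with rank differences of -4.82 and -7.14. Leaving out 1 library at a time gave 2 to 4 gained (most without the 2 h library of clone a) and 11 to 15 lost MED1 regions (most without the 0 h library of clone b), 3 to 5 gained and 9 to 13 lost MED24 regions (most without the same libraries), and rank differences of -9.43 to 1.29 (MED1) and of -7.94 to -3.60 (MED24). Without the 0 h library of clone a 14 MED1 regions were lost. A rule that asks both clones of a time to agree counts more when 1 of them is left out. Fewer peaks enter the stricter lists; the cause of the other differences was not tested. With 2 clones per group and no read numbers, weak regions called in 1 library cannot be told from missed ones.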

Other observations

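Losses are given by position as values, and differences between positions were not tested. Of 20 MED1 regions outside a gene span but within 20 kb of it, 7 were lost (35%), where 7.88% of 14065 such regions of all genes were. Inside or across a span 2 of 15 were lost (13.3%, against 5.51%), and over 20 kb away 0 of 9 (against 8.73%). In MED24 the losses took like shares at each position, 3 of 15 (20%, against 9.62%), 3 of 13 (23.1%, against 7.05%) and 2 of 9 (22.2%, against 11.4%). The 7 MED1 losses near the genes were 4 at Lefty1 and Lefty2, 2 at Gsc and 1 at Cer1.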
